A study of Mus musculus with 47 samples.

Results

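The hippocampus of old male mice was compared between 4 days and 1 day after sepsis. The comparison rested on 8 of the 47 libraries of the series, 4 from day 4 and 4 from day 1, and on the 11676 of 28032 genes whose mean reached 5 CPM (read counts scaled to a common library total) over these 8 libraries. All mice were C57BL/6 animals from the Jackson Laboratory, and the old males were 18 to 22 months old. The groups set beside them were old females of 18 to 22 months and young males of 3 to 5 months, sampled on the same days. Young females, also of 3 to 5 months, and the controls of the other groups enter only where all 47 libraries are compared over genome segments. Cecal ligation and puncture (CLP) was used to induce sepsis: the tied cecum is punctured so that gut bacteria leak into the abdomen. Every septic mouse received an analgesic, antibiotics and daily restraint. The day 1 mice were killed 24 hours after surgery, with 1 restraint session in the last hour. The day 4 mice were restrained on days 2, 3 and 4, also in the last hour before they were killed. Antibiotic injections therefore also differed in number between the days. The 4 old male controls had neither surgery nor anesthesia and were taken from their home cages, so restraint, surgery and drugs were absent from them together. Old mice of both sexes died between day 1 and day 4 in this study, and young mice did not. The old male day 4 group therefore consists of survivors. Each library came from 1 whole hippocampus of 1 mouse, sequenced as poly(A) RNA. In bulk tissue, fewer cells of a type and less RNA per cell cannot be told apart.

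The hippocampus forms new memories and holds granule cells, pyramidal cells, interneurons and glia. It is also rich in receptors for glucocorticoids, the adrenal hormones that rise in severe illness and under restraint, and these receptors act as transcription factors on genes such as Fkbp5 and Sgk1. Oligodendrocytes wrap axons in myelin, a membrane rich in cholesterol that brain cells make themselves through the sterol pathway. Microglia are the resident macrophages of the brain. They carry complement and lysosomal genes and shift their receptors when the body is inflamed.

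The 8 libraries held between 17300000 and 24600000 reads, estimated from the step that 1 read adds to the values, and 1 read was worth 0.0329 to 0.0456 CPM. The day 1 libraries correlated with each other at 0.984 or more over the log2 values, and the day 4 libraries at 0.974 or more. Day 4 replicate 3 stood apart, and without it the lowest correlation among the day 4 libraries was 0.991. Libraries of different days correlated between 0.918 and 0.975. Xist was at most 0.137 CPM in each of the 8 libraries, as in male tissue. The summed Y-linked transcripts were 77.6 to 89.9 CPM on day 1, 42.7 to 56.0 CPM on day 4 and 67.7 to 78.0 CPM in controls. Prox1, which marks granule cells of the dentate gyrus, was 71.3 to 85.5 CPM on day 1 and 48.2 to 80.8 CPM on day 4.

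The day 4 and day 1 libraries differed in how expression followed base composition. The slope of each library's deviation on the GC content of the exons was -0.27 ± 0.0739 log2 units for every 10 percentage points on day 1 (SD, n = 4) and 0.27 ± 0.140 on day 4 (SD, n = 4). The difference of 0.54 had an exact two-sided permutation p of 0.0286, the smallest that 4 against 4 libraries can give. Measured over all 12 old male libraries, the slopes were -0.16 to -0.13 in controls, -0.29 to -0.11 on day 1 and 0.26 to 0.55 on day 4. The day 4 libraries thus departed from both other groups. The same difference between days was 0.26 in young males and -0.01 in old females. Among the day 4 libraries, replicate 3 had a slope of 0.4765, and the other libraries lay between 0.183 and 0.225.

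The direction of most differences in the values as deposited followed GC content. In the lowest of 5 bins of GC content (31.9% to 43.9%), 7 genes were higher and 1739 lower on day 4, out of 2330. In the highest bin (55.2% to 71.3%), 1633 were higher and 7 lower. A second fit removed the smooth trend on GC content from each library, after which the counts were 201 higher and 154 lower in the lowest bin, and 205 higher and 197 lower in the highest. A change between days that itself follows GC content is removed with the trend, and from these libraries it cannot be told apart from a difference in library preparation. Changes are therefore given in both fits for most genes and gene groups. The words "rose" and "fell" are used only of genes that passed the test in the same direction in both. CPM values were not GC corrected, so the positions of day 4 values against controls carry the difference in slope.

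**Figure D1:**
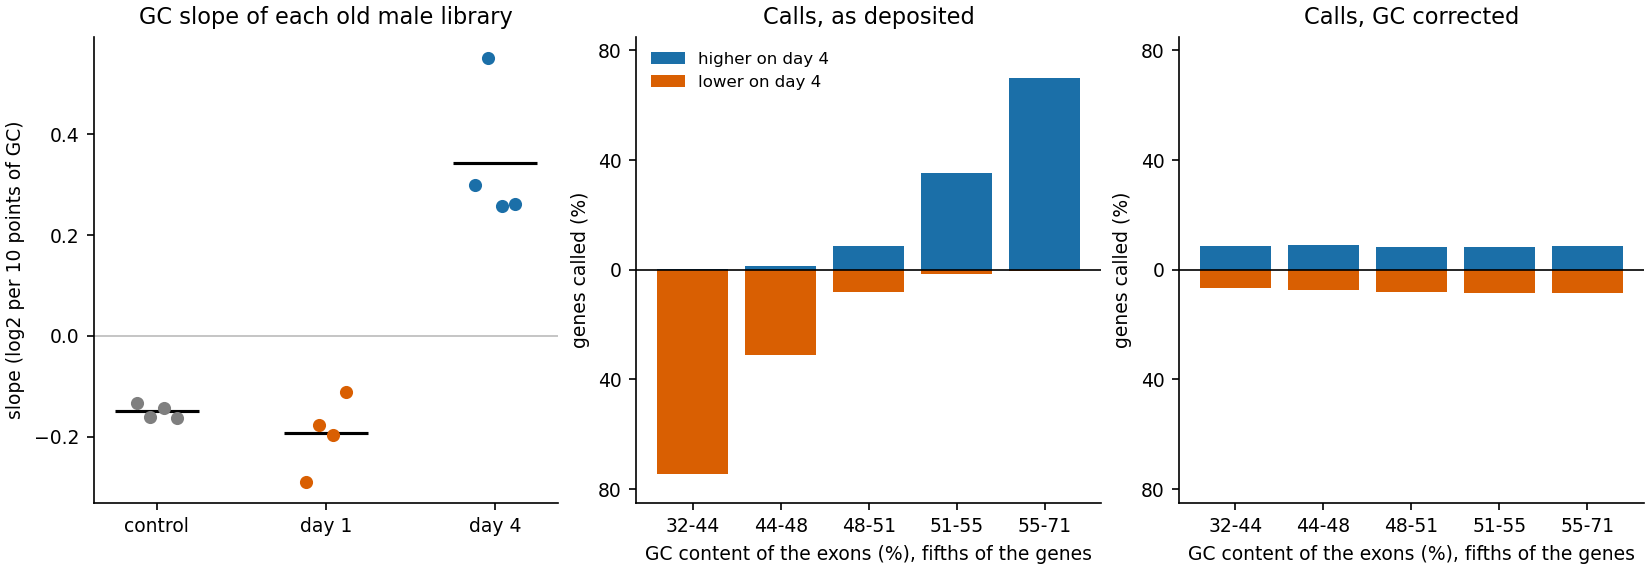
GC slope of each old male library in log2 units for 10 percentage points of GC (left; points are libraries, bars are means), and the percentage of genes called higher (up) or lower (down) on day 4 in 5 bins of genes by GC content, as deposited (middle) and after GC correction (right). All 4 day 4 slopes lie above 0 and all control and day 1 slopes below 0, and the opposite pattern of calls at both ends of the GC range (74.6% lower in the lowest bin) is 6.61% lower and 8.63% higher there after correction.

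A pair of genome segments also separated the day 4 libraries from the day 1 libraries. They were singled out after the values were seen. On chromosome 4 (GRCm38), 5 neighbouring features between 42114817 and 42242685, Gm13304, Gm17167, Gm13301, Gm5859 and Gm10600, divided all 47 libraries into 15 with almost no reads and 32 with reads. Gm13306 and Gm13305 lie in the same interval and did not follow the division, with 0.325 to 1.45 and 0.281 to 1.33 CPM on day 1 and 0.43 to 1.42 and 0.484 to 1.68 CPM on day 4. The 15 were the 4 old male day 4 libraries and the 11 old female libraries. Lower features also fell to near 0 on old male day 4: Gm17081 inside the interval, and Gm13302 and Gm21541 before it. They were 1.78 to 2.45, 1.27 to 1.59 and 2.24 to 3.92 CPM on day 1. On day 4 they were at most 1.86e-08, 0.0399 and 0.0119 CPM. Gm17167 was 18.6, 18.1, 17.6 and 20.5 CPM on day 1 and at most 0.0659 CPM on day 4. Across the series it was at most 0.0904 CPM in the 15 libraries and at least 12.3 CPM in the 32. Old male controls and old male day 1 libraries were all among the 32.

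Ide, the gene of insulin-degrading enzyme (chr19:37268743-37337852), also separated the old male day 4 libraries from the other males, but did not divide the series in the same way. It was 69.4, 70.3, 71.5 and 64.1 CPM on day 1 and 28.4, 25.6, 29.5 and 30.5 CPM on day 4. Controls were 67.1 to 75.0 CPM, and old females 27.8 to 48.1 CPM. Young females on day 4, all with reads over Gm17167, had 51.1, 31.4, 42.7 and 32.6 CPM of Ide, and single young female control and day 1 libraries had 47.7 and 47.1 CPM. The groups of old males did not overlap, with a log2 fold change of -1.24 ± 0.0777 (SE; limma, adjusted p = 2.24e-06) as deposited and -0.88 ± 0.0591 after GC correction (adjusted p = 1.14e-05). Of its neighbours, Fgfbp3 was 3.51 to 4.56 CPM on day 1 and 1.64 to 2.18 CPM on day 4 and was below the filter. Between Fgfbp3 and Ide lie Btaf1, Cpeb3 and March5. Btaf1 and March5 were lower on day 4 by -0.80 and -0.49 as deposited and by -0.32 and -0.35 after correction, and Cpeb3 overlapped between days (41.0 to 55.2 and 30.7 to 48.3 CPM), with -0.14 and -0.03. A segment that holds Ide and Fgfbp3 is known to vary in copy number within C57BL/6J stocks. Genotypes were not analysed here. Since all day 4 libraries stood on one side and all day 1 libraries on the other, a difference in the source of the mice and a difference between days cannot be told apart.

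**Figure D2:**
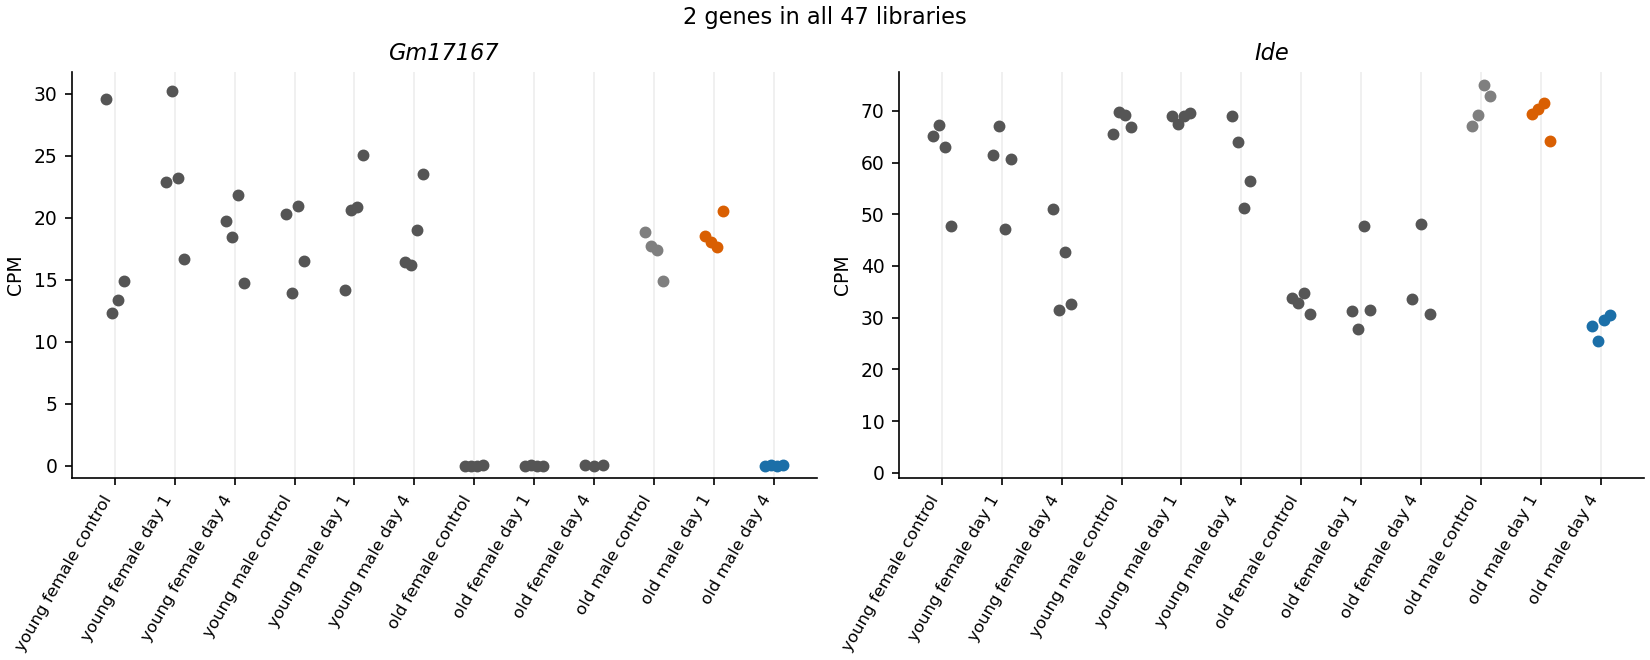
Normalized expression (CPM) of a chromosome 4 feature, Gm17167, and of Ide in each of the 47 libraries by age, sex and day; points are libraries. The 4 old male day 4 libraries sit with the old females near 0 for Gm17167 (at most 0.0904 CPM), and their Ide lies at 25.6 to 30.5 CPM for Ide, below the old male controls and day 1 libraries.

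Across the genome, 5391 of 11676 genes (46.2%) passed an unadjusted p of 0.01 as deposited, 2691 higher (23.0%) and 2700 lower (23.1%) on day 4. After GC correction 1906 of 11649 genes (16.4%) passed, 1005 higher (8.63%) and 901 lower (7.73%). Both fits called 1099 genes (9.43%) in the same direction, 593 higher (5.09%) and 506 lower (4.34%), and 42 genes (0.361%) in opposite directions. These shares over all genes are the background for the counts of each gene list below. At an adjusted p of 0.05, limma called 6422 genes (55.0%) as deposited and 1666 (14.3%) after correction. The 8 libraries did not overlap between days in 5931 genes (50.8%). The median of the absolute log2 fold change was 0.28 as deposited and 0.13 after correction, beside a median within-group SD of 0.14. Without day 4 replicate 3, 5486 genes (47.0%) were called as deposited, 2221 (19.1%) after correction and 1363 (11.7%) in both, 5.86% of all genes higher and 5.84% lower. The median log2 fold change over all genes was -0.00 in both fits. The gene nearest to the expression threshold from above was Alox8 at 5.00 CPM, and A230077H06Rik lay just below it at the same rounded mean.

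Prostaglandin D2 synthase and a lipid droplet gene fell from day 1 to day 4, and transferrin and scaffold genes of the synapse rose. Ptgds (chr2:25466709-25470046), which makes prostaglandin D2, was 806, 770, 852 and 761 CPM on day 1 and 306, 468, 203 and 298 CPM on day 4. Controls were 130 to 337 CPM, so the day 4 values overlapped them while the day 1 values did not. On the log2 scale the change was -1.38 ± 0.18 as deposited (SE; limma, adjusted p = 0.000127) and -1.76 ± 0.15 after GC correction (adjusted p = 9.78e-05). Plin4 (chr17:56100591-56109803), a coat protein of lipid droplets, was 80.5, 122, 88.2 and 90.7 CPM on day 1 and 59.1, 65.7, 38.3 and 24.6 CPM on day 4. All 4 day 4 values lay below the day 1 range and above the controls, which were 2.42 to 10.2 CPM. The log2 fold change of Plin4 was -1.09 ± 0.244 (SE; limma, adjusted p = 0.00275) and -1.42 ± 0.227 after correction (adjusted p = 0.00283).

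Trf (chr9:103204001-103230444), the iron carrier transferrin made by oligodendrocytes, was 158, 147, 290 and 199 CPM on day 1 and 458, 399, 397 and 356 CPM on day 4. The day 4 values lay above the controls of 301 to 344 CPM, and the day 1 values below them. The change on the log2 scale was 1.06 ± 0.169 (SE; limma, adjusted p = 0.000372) and 0.95 ± 0.166 after correction (adjusted p = 0.00432). Of the 50-base words of Trf, 79.8% also occur in the annotated transcript Gm20425, so its count is uncertain. Atp5l (chr9:44912557-44920742), a subunit of ATP synthase, was 36.6 to 63.3 CPM on day 1 and 77.4 to 159 CPM on day 4, but controls spread from 21.1 to 81.5 CPM. Its log2 fold change was 1.32 as deposited and 1.84 after correction. Pcsk1n, an inhibitor of a prohormone convertase, rose by 1.04 and by 0.64 after correction, and Fam171a2 by 1.06 and 0.29.

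Of the 15 tested transcripts of the mitochondrial genome, counted after their values were seen, 14 were lower and 0 higher as deposited, 5 were lower and 0 higher after correction, and the same 5 fell in both fits. Their median log2 fold change was -0.95 as deposited and -0.28 after correction. The summed level as deposited was 39793 to 43743 CPM on day 1 and 21859 to 25458 CPM on day 4, without overlap, and 35766 to 47627 CPM in controls. mt-Atp8, a subunit of ATP synthase, had a log2 fold change of -1.70 as deposited and -0.71 after correction. mt-Nd2 and mt-Nd5, subunits of complex I, had -1.29 and -1.11 as deposited and -0.51 and -0.41 after correction. Gm28437 lies on chromosome 1, and all of its 50-base words (100%) occur in mt-Co3, so its fall of 1.08 is not separate evidence. Gm12671, Gm10359 and Gm13394, which were 0.0117 to 3.05 CPM on day 1 and 13.3 to 43.3 CPM on day 4, are in the same position towards Gapdh, with which they share 100%, 100% and 94.7% of their words. Gapdh itself, a glycolytic enzyme, was 208 to 291 CPM on day 1 and 221 to 338 CPM on day 4, with a log2 fold change of 0.20 (limma, adjusted p = 0.212) and -0.09 after correction.

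Genes that respond to glucocorticoids fell from day 1 to day 4, and in each day 4 library the median of the list lay between day 1 and the controls. The list of 18 genes is the one the study names as raised on day 1 in these same animals, so its direction is not independent evidence. All 18 were tested. As deposited 11 were lower and 0 higher, after GC correction 14 were lower and 0 higher, and 10 fell in both fits. The 10 were Rhou, Sesn1, Tsc22d3, Gjb6, Fkbp5, Errfi1, Sgk1, Pdk4, Cdkn1a and Sult1a1. The median log2 fold change was -0.32, and -0.41 after correction. Leaving out each library in turn left 7 to 10 genes in both fits.

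Fkbp5 (chr17:28399094-28517527), a co-chaperone that lowers the affinity of the glucocorticoid receptor, was 108, 107, 114 and 116 CPM on day 1 and 95.9, 92.5, 82.1 and 70.6 CPM on day 4. All 4 day 4 values lay between the day 1 range and the controls of 47.4 to 62.8 CPM. This was a log2 fold change of -0.39 ± 0.092 (SE; limma, adjusted p = 0.00382) and -0.34 ± 0.0878 after correction (adjusted p = 0.0244). Sgk1 (chr10:21882184-21999903), a kinase that controls ion channels and transporters, was 152.4, 191.1, 147.2 and 166.6 CPM on day 1 and 146.7, 124.8, 99.1 and 80.7 CPM on day 4. The highest day 4 value lay just below the lowest day 1 value, and all 4 lay above the controls of 41.4 to 62.9 CPM. On the log2 scale the change was -0.57 ± 0.153 (SE; limma, adjusted p = 0.00778) and -0.56 ± 0.152 after correction (adjusted p = 0.029).

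The larger falls were those of a detoxifying enzyme, a cell cycle inhibitor and a metabolic kinase. Sult1a1 (chr7:126672865-126676432), a sulfotransferase of phenols, was 23.81, 19.98, 21.88 and 22.39 CPM on day 1 and 8.33, 11.95, 5.13 and 7.72 CPM on day 4, beside 3.01 to 6.16 CPM in controls. Its log2 fold change was -1.36 ± 0.176 (SE; limma, adjusted p = 0.000124) and -1.28 ± 0.174 after correction. Cdkn1a (chr17:29090976-29100727), the inhibitor p21 of cyclin-dependent kinases, was 31.0, 51.8, 31.6 and 43.3 CPM on day 1 and 19.2, 20.3, 14.1 and 7.84 CPM on day 4. The controls were 4.05 to 5.29 CPM, so the lowest day 4 library was nearest to them and none reached them. Pdk4 (chr6:5483351-5496309), which turns pyruvate away from oxidation, was 14.3 to 16.1 CPM on day 1 and 5.53 to 7.52 CPM on day 4, and the day 4 values overlapped the controls of 6.37 to 7.48 CPM. Its log2 fold change was -1.09 ± 0.108 and -0.83 ± 0.0932 after correction.

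Other members of the list did not fall in both fits. Ddit4, an inhibitor of mTOR signalling, was 39.0 to 57.3 CPM on day 1 and 43.9 to 66.3 CPM on day 4. Sdc4, a heparan sulfate proteoglycan, was 71.1 to 74.3 CPM on day 1 and 75.5 to 82.0 CPM on day 4, against 41.4 to 48.8 CPM in controls. Klf15, a transcription factor, was 33.8 to 39.0 CPM on day 1 and 31.6 to 37.6 CPM on day 4, with a log2 fold change of -0.06 as deposited and -0.42 after correction (limma, adjusted p = 0.00368). These 3 stayed above their control ranges on both days in every library.

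The promoter of Sgk1 carries a complete glucocorticoid response element, the palindrome to which the receptor binds, and is shown because the gene belongs to the list that fell. The motif searched was AGAACA and TGTTC with 3 bases of any kind between them, on both strands, in the windows from 250 bases before to 50 after each start site given by RefSeq (GRCm38.p6). Of the 18 listed genes, all had a window and 1 held the motif. Among 11422 windows of tested genes, 1 (0.00876%) held it. In the window chr10:21993640-21993939 on the plus strand, printed 5′ to 3′, the capitals mark overlapping matches on both strands, which make up 1 site.
Sgk1: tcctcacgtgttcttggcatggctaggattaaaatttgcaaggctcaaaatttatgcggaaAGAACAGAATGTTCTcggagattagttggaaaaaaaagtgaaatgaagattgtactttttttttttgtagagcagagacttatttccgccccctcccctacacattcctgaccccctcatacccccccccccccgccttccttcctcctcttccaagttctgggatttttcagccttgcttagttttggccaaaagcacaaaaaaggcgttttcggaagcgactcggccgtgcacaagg
A window without these letters says nothing of binding elsewhere.

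Genes of cholesterol synthesis were higher on day 4. Of the 23 genes of the list, all tested, 10 were higher and 0 lower as deposited, and 12 were higher and 0 lower after GC correction. The 6 that rose in both fits included Mvk, Srebf2, Tm7sf2, Dhcr7 and Ebp. The median log2 fold change was 0.23 as deposited and 0.28 after correction. As deposited, the list's median deviation from the day 1 mean was 0.13 to 0.26 on day 4 and 0.33 to 0.44 in controls. After correction it was 0.23 to 0.38 on day 4 and 0.33 to 0.45 in controls. Mvk (chr5:114444269-114460591), the kinase that phosphorylates mevalonate, was 8.79, 11.1, 10.9 and 9.68 CPM on day 1 and 19.7, 21.5, 15.6 and 18.5 CPM on day 4. All 4 day 4 values lay above the controls of 11.9 to 14.01 CPM as deposited. The change on the log2 scale was 0.83 ± 0.113 (SE; limma, adjusted p = 0.000149) and 0.49 ± 0.0914 after correction (adjusted p = 0.00577).

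Srebf2, the transcription factor of the pathway, rose by 0.67 and by 0.35 after correction. Ebp and Dhcr7, which act in late steps of the synthesis, rose by 0.46 and 0.50, and by 0.59 and 0.44 after correction.

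A further 6 genes of the pathway, Sqle, Insig1, Msmo1, Idi1, Nsdhl and Hmgcs1, were called only after correction. Hmgcs1, the synthase that makes the precursor of mevalonate, was 93.2, 81.0, 90.0 and 76.7 CPM on day 1 and 89.5, 73.9, 101 and 94.2 CPM on day 4. The groups overlapped as deposited, and all 8 libraries lay below the controls of 116 to 129 CPM. This was a log2 fold change of 0.07 as deposited and 0.49 after correction (limma, adjusted p = 0.00137).

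The promoter of Hmgcs1 is shown because it was the 1 of 16 sterol genes with a RefSeq window that held the sterol response element TCACNCCAC, the site of the SREBP factors, searched on both strands. Among all 11422 windows, 130 (1.14%) held it. In chr13:119690101-119690400 (GRCm38.p6, plus strand, 5′ to 3′) the capitals mark the match.
Hmgcs1: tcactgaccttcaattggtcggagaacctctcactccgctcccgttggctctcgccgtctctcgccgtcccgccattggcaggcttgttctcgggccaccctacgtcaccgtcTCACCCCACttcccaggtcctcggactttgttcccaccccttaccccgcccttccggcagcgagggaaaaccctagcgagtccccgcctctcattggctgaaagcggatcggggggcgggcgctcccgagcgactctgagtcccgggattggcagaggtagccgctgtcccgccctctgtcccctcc
The match is a description of the letters in this window and was not measured as a bound site.

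Myelin genes rose, and their median approached that of the controls. All 19 listed genes were tested. As deposited 12 were higher and 3 lower, and after GC correction 11 were higher and 0 lower. The 10 that rose in both fits included Opalin, Pllp, Fa2h, Mag, Cldn11, Lpar1, Cnp and Mog, and leaving out each library in turn left 10 or 11. The median log2 fold change was 0.46 as deposited and 0.44 after correction. Opalin (chr19:41061710-41077113), a membrane protein of myelinating oligodendrocytes, was 3.74, 5.26, 2.82 and 2.36 CPM on day 1 and 7.66, 10.2, 10.8 and 16.6 CPM on day 4. All day 4 values lay above day 1 and below the controls of 17.6 to 26.1 CPM. On the log2 scale the change was 1.43 ± 0.223 (SE; limma, adjusted p = 0.000327) and 1.62 ± 0.222 after correction (adjusted p = 0.00154).

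Pllp, a tetraspan protein of myelin, rose by 1.27 and by 1.03 after correction. Mbp, the myelin basic protein, had 0.16 and 0.04 and passed in neither fit.

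Precursors and early oligodendrocytes gave a mixed result. Of 11 tested genes, 5 were higher and 2 lower as deposited, and 2 higher and 1 lower after correction. In both fits 3 were called, beside 9.43% of all genes. Olig1 (chr16:91269772-91271933), a transcription factor of the lineage, was 41.7 to 55.3 CPM on day 1 and 86.9 to 109 CPM on day 4, and rose by 0.997 ± 0.101 and by 0.44 ± 0.0725 after correction (limma, adjusted p = 0.00348). Sox10, another factor of the lineage, rose by 0.91 and by 0.30 after correction. Pdgfra, the growth factor receptor of the precursors, was 42.5 to 45.9 CPM on day 1 and 26.4 to 36.9 CPM on day 4, and fell by 0.41 and by 0.38 after correction. The median of the list was 0.13 as deposited and -0.08 after correction. The 2 rises became 1 without day 1 replicate 1 or 3 or day 4 replicate 3, 5 or 8, and the 1 fall became 2 without day 4 replicate 2 or 8.

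**Figure D3:**
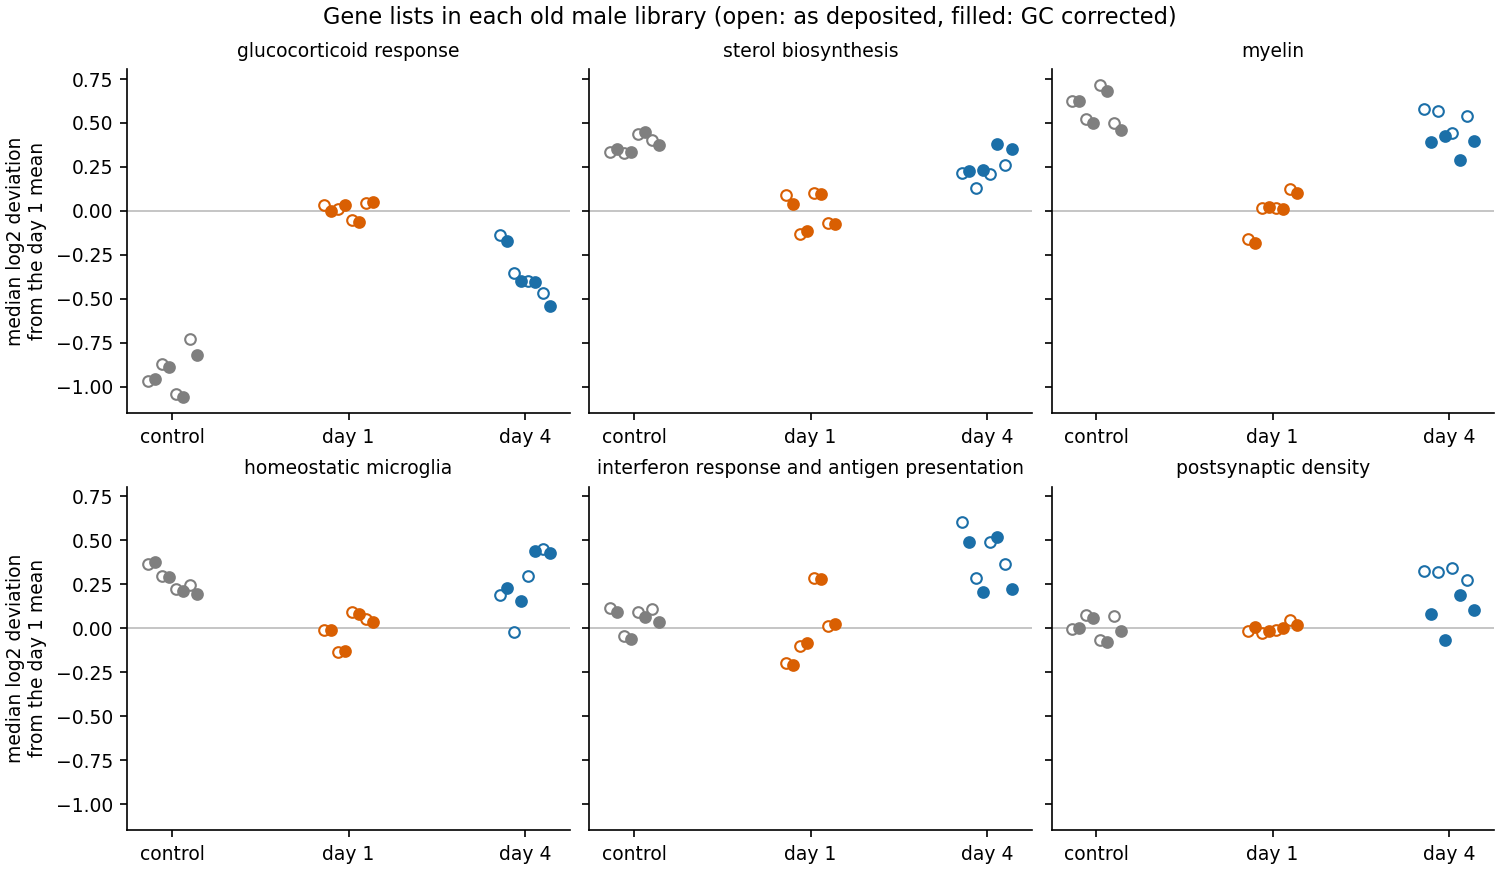
Median log2 deviation of the genes of 6 lists from the day 1 mean in each old male library; open points are values as deposited, filled points after GC correction. The glucocorticoid median of the day 4 libraries (-0.47 to -0.13 as deposited) lies between the controls (-1.04 to -0.73) and day 1, the myelin median (0.45 to 0.58) overlaps the controls (0.50 to 0.72) as deposited and lies below them after correction (0.29 to 0.42 against 0.46 to 0.68), and the postsynaptic density median above 0 as deposited (0.28 to 0.34) is -0.07 to 0.19 after correction.

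Genes of resting and of phagocytic microglia rose in part. Of 12 tested genes of resting (homeostatic) microglia, 4 were higher and 0 lower as deposited, and 5 higher and 0 lower after correction, with 2 rising in both. Over all genes, 23.0% were higher as deposited, 8.63% after correction and 5.09% in both fits. Fcrls was 11.98, 10.2, 14.1 and 13.9 CPM on day 1 and 18.3, 18.2, 24.7 and 24.0 CPM on day 4, above the controls of 14.9 to 17.3 CPM. Csf1r, the receptor on which microglia depend for survival, was 63.7 to 72.2 CPM on day 1 and 96.6 to 116 CPM on day 4, beside 68.5 to 79.8 CPM in controls. Fcrls rose by 0.71 ± 0.131 (SE; limma, adjusted p = 0.000837) and by 0.77 ± 0.128 after correction, and Csf1r by 0.59 ± 0.0782 (adjusted p = 0.000132) and by 0.36 ± 0.0837 after correction. P2ry12, the purine receptor of resting microglia, had a log2 fold change of 0.03 as deposited and 0.59 after correction. The median of the list was 0.16, and 0.30 after correction. Without day 4 replicate 3 the number that rose in both was 4.

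Of 16 tested genes of phagocytic microglia and lysosomes, 8 were higher and 2 lower as deposited, and 5 higher and 2 lower after correction. In both fits 4 rose and 2 fell, beside 5.09% and 4.34% of all genes. Trem2 (chr17:48346401-48354147), a lipid receptor that drives phagocytosis, was 9.02, 7.62, 9.01 and 10.03 CPM on day 1 and 14.5, 17.9, 18.9 and 16.3 CPM on day 4. All 4 day 4 values lay above the controls of 10.4 to 13.04 CPM, and Trem2 rose by 0.85 ± 0.11 (SE; limma, adjusted p = 0.000126) and by 0.76 ± 0.107 after correction (adjusted p = 0.00162). Apoe, the lipid carrier, was 631 to 800 CPM on day 1 and 1109.6 to 1749 CPM on day 4, and rose by 0.83 and by 0.42 after correction. Lyz2, a lysozyme, and Cd9, a tetraspanin, were the other members that rose. The 4 rises became 2 without day 1 replicate 1 or 2, and the 2 falls became 1 without day 1 replicate 2 or 4 or day 4 replicate 8.

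Spp1 (chr5:104435118-104441050), the secreted phosphoprotein osteopontin, moved the other way. It was 9.29, 8.68, 7.99 and 8.95 CPM on day 1 and 3.42, 4.81, 3.27 and 4.15 CPM on day 4, and overlapped the controls of 3.68 to 4.34 CPM on day 4 only. Its log2 fold change was -0.99 ± 0.127 (SE; limma, adjusted p = 0.000117) and -0.69 ± 0.136 after correction. Fcgr3, an Fc receptor for antibodies, was 21.1 to 30.5 CPM on day 1 and 15.1 to 20.2 CPM on day 4, and fell by 0.43 and by 0.54 after correction. It shares 12.8% of its 50-base words with other genes.

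Complement genes depended on the correction. Of 7 tested, 4 were higher and 1 lower as deposited, and 1 was higher after correction. The shares of all genes that were higher were 23.0% as deposited and 8.63% after correction. C4b (chr17:34728380-34743882), the component that tags targets downstream of C1q, was 133, 202, 165 and 199 CPM on day 1 and 327, 288, 388 and 250 CPM on day 4. The day 4 values lay above the controls of 161 to 180 CPM, and the day 1 values on both sides of them. The change on the log2 scale was 0.84 ± 0.145 (SE; limma, adjusted p = 0.000595) and 0.53 ± 0.152 after correction (adjusted p = 0.0369). Of the 50-base words of C4b, 35.2% occur in its copy C4a. C1qa and C1qb, subunits of the initiator C1q, were 40.8 to 50.7 and 56.7 to 72.3 CPM on day 1 and 59.3 to 74.3 and 90.0 to 101 CPM on day 4. Their log2 fold changes were 0.56 and 0.59 as deposited and 0.06 and 0.19 after correction (limma, adjusted p = 0.706 and 0.184). C3, the central component, was 3.58 to 13.4 CPM on day 1 and 8.201 to 24.5 CPM on day 4 and passed in neither fit. The 1 rise in both fits became 0 without day 1 replicate 1 or 3 or day 4 replicate 2 or 5, and 2 without day 4 replicate 3, while without day 4 replicate 8 there was 1 fall.

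Of 12 tested genes of the interferon response and antigen presentation, 5 were higher and 0 lower as deposited and 4 higher and 0 lower after correction. In both fits 3 rose, beside 5.09% of all genes. Tap2, which carries peptides into the endoplasmic reticulum for presentation, was 5.90, 8.27, 6.84 and 7.28 CPM on day 1 and 11.7, 13.3, 13.4 and 14.5 CPM on day 4, above the controls of 6.95 to 7.94 CPM. It rose by 0.82 ± 0.114 (SE; limma, adjusted p = 0.000172) and by 0.42 ± 0.112 after correction (adjusted p = 0.0269). H2-D1, a class I histocompatibility gene, rose by 0.75 and by 0.53 after correction. Ifit3, an interferon-induced antiviral gene, was 4.37 to 7.55 CPM on day 1 and 5.84 to 14.4 CPM on day 4, which overlapped, and 51.2% of its words occur in Ifit3b. The median of the list was 0.51, and 0.38 after correction. The number that rose in both fits was 1 without day 4 replicate 8, 2 without day 1 replicate 1, 2 or 4 or day 4 replicate 5, 5 without day 4 replicate 3 and 6 without day 1 replicate 3.

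The study follows 11 immune genes in old males, a list drawn from these samples and so not independent evidence. For Fcgr3, Jak3, Il6ra, Il4ra, Sh2b2, Stat3 and C1qa it reports elevation over controls on both days. The changes given here are of day 4 against day 1, which is another comparison. Of the 11 genes, Trem2 and C4b rose in both fits and Fcgr3 fell. The 2 rises became 1 without day 1 replicate 1 or 3 or day 4 replicate 2 or 5, and the fall became 0 without day 1 replicate 2 or 4 or day 4 replicate 8. Il4ra, a receptor subunit for interleukin-4, was 8.44 to 13.4 CPM on day 1 and 7.10 to 9.78 CPM on day 4, with a log2 fold change of -0.28 and -0.60 after correction. Sh2b2, an adaptor of cytokine receptors, had -0.35 and -0.72, and Ctss, a lysosomal protease, had 0.21 and 0.41. Jak3, Il6ra and Stat3 passed in neither fit, with log2 fold changes of 0.23, -0.01 and 0.13 as deposited and -0.31, -0.06 and 0.01 after correction. Of 12 tested genes of NF-kB and cytokine signalling, 0 were called in both fits. Rela, a subunit of NF-kB, had 0.49 as deposited and -0.02 after correction.

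Of 15 tested genes of astrocyte reactivity and the acute phase, 5 were higher and 2 lower as deposited. After correction 2 were higher and 3 lower. Vim and Cebpd rose in both fits and 0 fell. Vim, an intermediate filament of reactive astrocytes, was 29.9 to 47.1 CPM on day 1 and 58.6 to 68.6 CPM on day 4, beside 32.1 to 34.9 CPM in controls. It rose by 0.63 ± 0.124 (SE; limma, adjusted p = 0.00123) and by 0.71 ± 0.128 after correction. Cebpd, a transcription factor of the acute phase, was 6.13 to 9.61 CPM on day 1 and 10.7 to 14.03 CPM on day 4. Gfap, the filament most used to mark reactive astrocytes, had 0.52 as deposited and 0.36 after correction (limma, adjusted p = 0.19). The median of the list was 0.05, and -0.09 after correction. Among 16 tested genes of astrocytes at large, Sox9 and Aldoc rose in both fits and Gjb6 fell. The 2 rises became 1 without day 1 replicate 2 or 4 or day 4 replicate 8, and the 1 fall became 2 without day 4 replicate 3. In the reactivity list 1 gene fell without day 1 replicate 1.

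Endothelial genes rose in part. Of 17 tested, 6 were higher and 1 lower as deposited, and 7 higher and 2 lower after correction. In both fits 6 rose and 1 fell, beside 5.09% and 4.34% of all genes. Cldn5 (chr16:18776847-18778262), a tight junction protein of the blood-brain barrier, was 36.3, 28.8, 31.1 and 35.9 CPM on day 1 and 66.8, 77.1, 55.7 and 69.3 CPM on day 4. As deposited, Cldn5 on day 4 lay above the controls of 34.0 to 48.4 CPM. It rose by 0.999 ± 0.107 (SE; limma, adjusted p = 5.56e-05) and by 0.46 ± 0.0904 after correction (adjusted p = 0.00733). Tie1, Tek and Kdr, receptors of vessel growth, rose by 1.02, 0.65 and 0.57 as deposited and by 0.64, 0.80 and 0.69 after correction. Ly6a, a surface protein induced by interferon, was 33.3 to 41.8 CPM on day 1 and 22.6 to 31.7 CPM on day 4, against 12.7 to 16.8 CPM in controls, and fell by 0.43 and by 0.42 after correction. Pecam1, an adhesion molecule of all endothelium, had 0.02 and 0.07. The number that rose in both fits was 3 without day 1 replicate 2 or day 4 replicate 8, and 4 without day 1 replicate 4 or day 4 replicate 2.

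Markers of tissue next to the hippocampus varied between single libraries. The sum of the choroid plexus markers was 33.4 to 3284 CPM on day 1, 65.0 to 2647 CPM on day 4 and 27.9987 to 57.7 CPM in controls. Ttr, the carrier that the choroid plexus secretes, was 2939 CPM in day 1 replicate 3 and 2481 CPM in day 4 replicate 3, and at most 213 CPM in the other 6 libraries. Of 6 tested choroid plexus genes, 0 were called in either fit. At an adjusted p of 0.05 limma also called 0 of them. Without day 1 replicate 3, 1 was higher in both fits. As deposited, neutrophil and monocyte markers summed to 8.52 to 10.5 CPM on day 1 and 12.9 to 14.8 CPM on day 4. Controls had 5.53 to 8.56 CPM. Only 1 of the 11 genes, Csf3r, was high enough to test. Csf3r was called higher as deposited, with a log2 fold change of 0.57, and was not called after correction, with 0.31. Red blood cell transcripts spread from 55.7 to 147 CPM on day 1 and from 3.87 to 185 CPM on day 4. The part of these cells in the immune and vascular results was not tested.

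In neurons, scaffold genes of the postsynaptic density rose and receptor genes depended on the correction. Of 20 tested genes of the density, 11 were higher and 3 lower as deposited, 5 higher and 0 lower after correction, and 4 rose in both: Shank1, Dlgap3, Dlg4 and Dlgap4. Shank1 (chr7:44310253-44360572), a master scaffold of the density, was 334, 346, 346 and 382 CPM on day 1 and 697, 739, 738 and 707 CPM on day 4, beside 345 to 451 CPM in controls. It rose by 1.03 ± 0.0633 (SE; limma, adjusted p = 2.22e-06) and by 0.47 ± 0.0639 after correction (adjusted p = 0.00154). Dlgap3 (chr4:127169204-127237022), which binds Shank proteins, was 113 to 136 CPM on day 1 and 255 to 287 CPM on day 4. It rose by 1.10 ± 0.0731 and by 0.44 ± 0.0604 after correction. The median of the list was 0.29 as deposited and 0.05 after correction.

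GABA-A receptor genes had the largest shift between the fits among the lists of neuronal genes. Of 12 tested, 10 were lower and 1 higher as deposited, and 1 was lower and 1 higher after correction. Their median was -0.45 as deposited and -0.03 after correction, and the median GC content of their exons was 42.0%. Gabra5, a subunit of receptors outside synapses, was 124 to 145 CPM on day 1 and 94.8 to 113 CPM on day 4 and fell by 0.32 and by 0.27 after correction. Gabra2 was lower as deposited (-0.40) and higher after correction (0.31). Without day 4 replicate 5, 2 fell in both fits in place of 1.

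Both enzymes that make GABA fell. Gad1 (chr2:70553072-70602014) was 251, 246, 248 and 262 CPM on day 1 and 202, 173, 201 and 205 CPM on day 4, below the controls of 239 to 268 CPM. This was a log2 fold change of -0.37 ± 0.0696 (SE; limma, adjusted p = 0.00103) and -0.26 ± 0.059 after correction (adjusted p = 0.0142). Gad2 was 114 to 127 CPM on day 1 and 66.8 to 87.9 CPM on day 4, and fell by 0.57 and by 0.28 after correction. Cck, a neuropeptide of a class of interneurons, rose by 0.59 and by 0.23 after correction. Of the 15 interneuron genes tested, 3 were called in both fits, and the 1 rise among them was absent without day 1 replicate 2, 3 or 4 or day 4 replicate 2 or 5.

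Of 20 tested genes of synaptic vesicle release, 9 were higher and 1 lower as deposited, 5 higher and 1 lower after correction, and Stx1a, Slc17a7 and Syp rose in both. Of 22 glutamate receptor genes, Grm2 and Grik5 rose in both and Grin2a fell. Grin2a, a subunit of NMDA receptors, was 265 to 304 CPM on day 1 and 159 to 231 CPM on day 4, with the lowest value in day 4 replicate 3. Of 8 tested genes of dentate granule cells, Dock10 fell, and of 9 of CA pyramidal cells, Spink8 fell. These counts and those of the glutamate receptors lie near the 9.43% of all genes called in both fits. Leaving out 1 library took away the fall in the dentate list (day 1 replicate 2 or 4), in the pyramidal list (day 1 replicate 1 or day 4 replicate 5 or 8) and in the glutamate list (day 1 replicate 1 or 3), and left 1 of the glutamate list rising (day 1 replicate 1, 3 or 4 or day 4 replicate 2 or 5). Among immature neuron genes, Tubb2b, a tubulin of growing neurons, was 63.8 to 102 CPM on day 1 and 129 to 175 CPM on day 4, and rose by 0.97 and by 0.83 after correction. It shares 39.3% of its words with other tubulins.

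Immediate early genes, which neuronal activity switches on within minutes, were called as deposited only. Of 18 tested, 8 were higher and 1 lower as deposited and 0 were called after GC correction at an unadjusted p of 0.01, nor at a limma adjusted p of 0.05. Arc was 58.3 to 86.7 CPM on day 1 and 117 to 131 CPM on day 4, with a log2 fold change of 0.76 as deposited and 0.29 after correction (limma, adjusted p = 0.103). Jun was 78.3 to 93.0 CPM on day 1 and 117 to 129 CPM on day 4, with 0.50 and 0.18. Without day 4 replicate 3, 4 members rose in both fits, and without single other libraries 0 or 1.

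Genes of fuel use moved in part. Of 16 genes of glycolysis, all tested, 10 were higher and 0 lower as deposited and 6 higher and 1 lower after correction, and Pkm, Aldoc, Tpi1, Pfkl, Ldha and Eno1 rose in both. Pfkl, the liver type of phosphofructokinase, was 142 to 156 CPM on day 1 and 202 to 263 CPM on day 4, and rose by 0.59 and by 0.23 after correction. Eno1, an enolase, rose by 0.56 and by 0.32, and shares 72.2% of its words with other transcripts. Leaving out single libraries gave 1 to 5 rises in both fits, with 1 without day 1 replicate 2, 2 without day 4 replicate 2, 3 without day 1 replicate 3 or 4, and 4 without day 1 replicate 1 or day 4 replicate 3 or 8. Without day 4 replicate 3, 1 fell. Of 16 tested genes of fasting and fatty acid use, 3 fell in both fits, Plin4 and Pdk4 among them.

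Of 19 tested heat shock genes and 19 of the endoplasmic reticulum, 3 each were called in both fits, beside 9.43% of all genes. Among the heat shock genes, Cryab rose and Hsp90aa1 and Hspd1 fell in both fits. Cryab (chr9:50751325-50756636), a small heat shock protein of oligodendrocytes and astrocytes, was 42.1, 52.6, 58.3 and 57.9 CPM on day 1 and 105, 112, 94.8 and 98.8 CPM on day 4. The day 4 values lay in and just above the control range of 87.6 to 100 CPM, and the log2 fold change was 0.96 ± 0.103 (SE; limma, adjusted p = 5.7e-05) and 0.71 ± 0.0842 after correction (adjusted p = 0.00082). Hsp90aa1 shares 58.5% and Hspd1 44.8% of their words with other transcripts. The 1 heat shock rise became 2 without day 1 replicate 3 and 3 without day 4 replicate 3. In the endoplasmic reticulum, Sdf2l1 and Hyou1, both chaperones, rose and Dnajb9, a co-chaperone of the unfolded protein response, fell. Dnajb9 was 22.2 to 28.4 CPM on day 1 and 10.8 to 13.4 CPM on day 4, below the controls of 18.4 to 24.5 CPM. The 2 rises in this list became 0 without day 1 replicate 1 or 2 or day 4 replicate 2 or 5, 1 without day 1 replicate 4 or day 4 replicate 8, and 5 without day 1 replicate 3.

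Of 17 clock genes, Cry1 and Nr1d2, both repressors of transcription, fell in both fits, which is near the 9.43% of all genes. Per1, a repressor that glucocorticoids also induce, had 0.41 as deposited and -0.06 after correction. The 2 falls became 0 without day 1 replicate 2, 3 or 4 and 1 without day 1 replicate 1 or day 4 replicate 2, 5 or 8, and 1 clock gene rose without day 1 replicate 2. Of 37 tested enzymes that modify histones and DNA, 13 were higher and 10 lower as deposited, 6 higher and 2 lower after correction, and Hdac5, a histone deacetylase, rose while Kdm3a, a demethylase, and Ezh1, a methyltransferase, fell in both. Without day 4 replicate 3, 5 rose and 2 fell, and without day 4 replicate 8, 2 rose. The 2 falls became 0 without day 1 replicate 1 or 2 and 1 without day 4 replicate 2, 5 or 8. Of 31 proteasome genes, Psmb6 rose and Psmd6 and Psmd7 fell. The rise was absent without day 1 replicate 1, 2 or 3 and became 2 without day 4 replicate 8, and the 2 falls became 1 without day 1 replicate 1 or 3 or day 4 replicate 2, 5 or 8. The 3 of 37 and 3 of 31 called in both fits lie near the 9.43% of all genes. Of 4 tested genes of cell division, Ccnd1, a cyclin, rose by 0.53 and by 0.40 after correction. Of the 7 tested genes of mural cells, 4 of meningeal fibroblasts, 7 of thalamus and striatum and 4 of red blood cells, 0 were called in both fits. At an unadjusted p of 0.01 in 1 fit or the other, Vtn and Dcn were among those called. Leaving out 1 library gave 1 mural gene higher (day 4 replicate 3 or 5) or lower (day 4 replicate 2) and 1 fibroblast gene higher (day 1 replicate 3) in both fits.

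**Figure D4:**
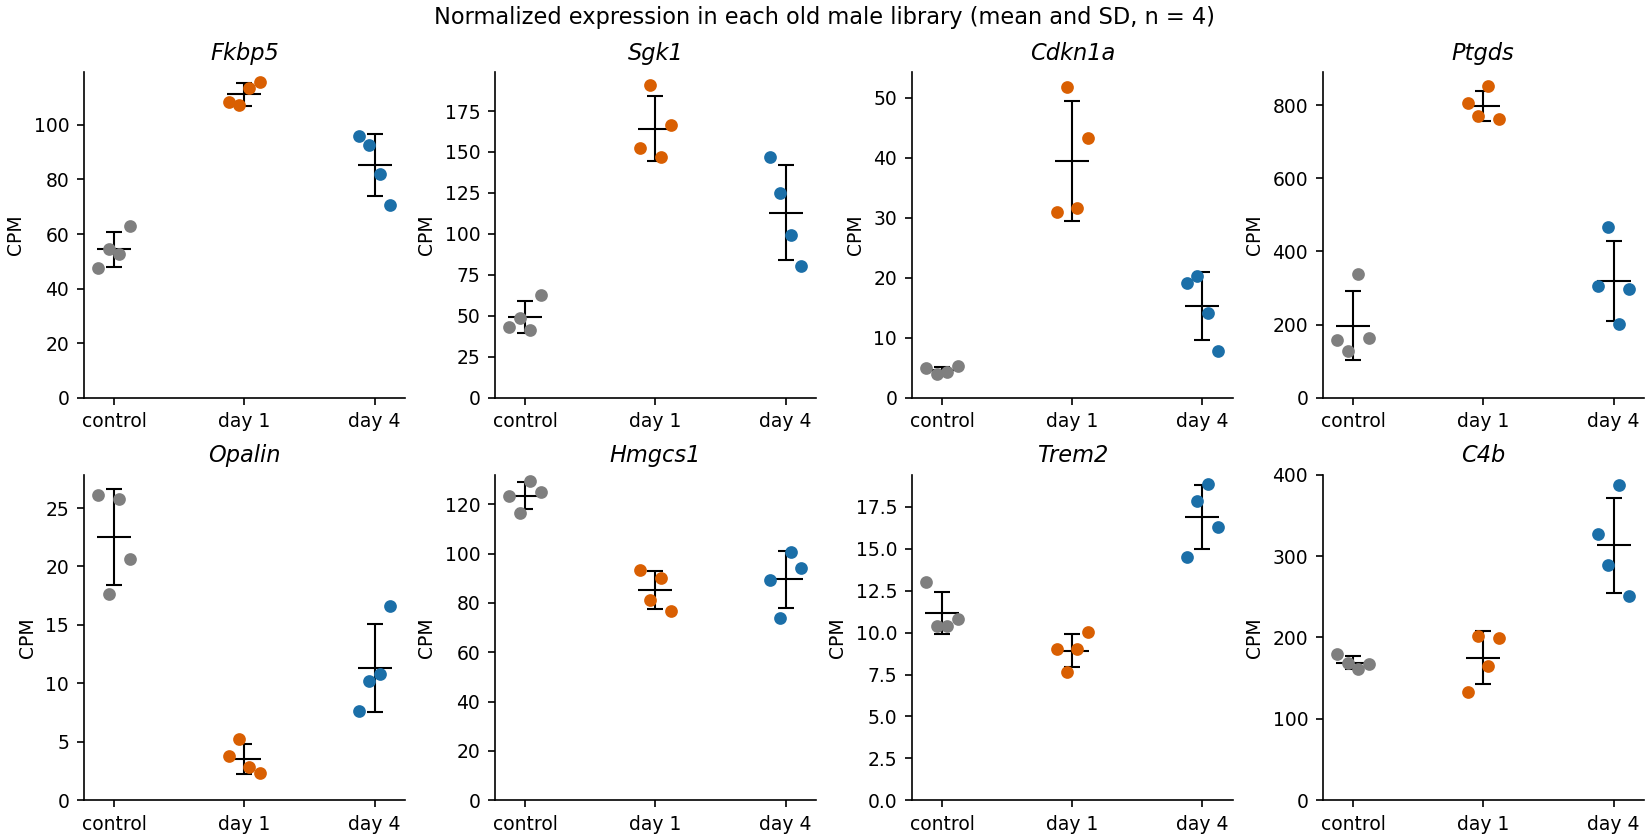
Normalized expression (CPM) of 8 genes in the old male controls, day 1 and day 4 libraries as deposited; points are libraries, bars the mean and SD (n = 4). Fkbp5, Sgk1 and Cdkn1a on day 4 lie between day 1 and the controls, Opalin between day 1 and the controls from below (7.66 to 16.6 CPM), and Trem2 and C4b on day 4 above both other groups.

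The change from day 1 to day 4 was then compared with that of young males and of old females, which share no library with it. The test was of the difference between the changes. Against young males, 543 genes (4.65%) passed as deposited, 202 (1.73%) after GC correction and 138 (1.18%) in both. At an adjusted p of 0.05, limma left 10 (0.0856%) and 7 genes (0.0601%). Young male day 4 replicate 3 had Xist at the level of females, and without it the counts were 435, 203 and 138. Against old females, 3946 genes (33.8%) passed as deposited, 2456 (21.1%) after correction and 1593 (13.7%) in both.

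The glucocorticoid list fell by a median of 0.41 after correction in old males and in young males and by 0.95 in old females. Against young males 0 of 18 genes differed in either fit. Against old females, where 14.8% and 10.7% of all genes had a higher change in old males, 9 of 18 as deposited and 12 after correction fell more in the females. The myelin medians were 0.44 in old males, 0.31 in young males and 0.52 in old females, and the sterol medians were 0.28, 0.43 and 0.38. For myelin, 0 of 19 genes differed from young males after correction, and 1 was lower as deposited, beside 2.02% of all genes. These values are given as measured, since a p that missed the threshold does not show that the changes were alike.

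Immune lists differed between old and young males. The old male day 4 group also differed from young males in survival and over the genome segments, and the part of these was not tested. The interferon and antigen presentation median after correction was 0.38 in old males, -0.31 in young males and -0.29 in old females. The change was higher in old than in young males in 6 of 12 genes as deposited and in 8 after correction, beside 2.63% and 1.11% of all genes. For complement the medians were 0.09, -1.09 and -0.72, and 5 of 7 genes as deposited and 4 after correction were higher in old than in young males. C4b changed by 0.84 in old males, -0.95 in young males and -0.99 in old females as deposited. The difference from young males was 1.79 ± 0.207 (SE; limma, adjusted p = 0.000194) and 1.63 ± 0.205 after correction (adjusted p = 0.000768), and the difference from old females was 1.83 ± 0.242 (adjusted p = 5.84e-05) and 1.56 ± 0.249 after correction (adjusted p = 0.000666). C1qb differed from young males by 0.92 (limma, adjusted p = 0.00917) and by 0.72 after correction (adjusted p = 0.113). For astrocyte reactivity the medians were -0.09, -0.42 and -1.30, and 12 of 15 genes after correction were higher in old males than in old females, where the list fell most.

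Homeostatic microglia genes rose more in old females, with medians after correction of 0.30 in old males, 0.17 in young males and 0.94 in old females. Of 12 tested genes, 6 after correction were lower in the old male change than in the old female change, beside 10.3% of all genes. Endothelial medians were 0.07, -0.30 and 0.21, and 6 of 17 genes in either fit were higher in old than in young males. Per1 differed from old females by 1.45 ± 0.136 (SE; limma, adjusted p = 4.08e-06) and by 1.02 ± 0.12 after correction. Oxct1, which activates ketone bodies for oxidation, changed by -0.20 in old males and by 0.99 in old females, a difference of -1.19 ± 0.131 (limma, adjusted p = 1.86e-05) and of -1.04 ± 0.119 after correction. Ide differed from young males by -1.05 ± 0.117 (limma, adjusted p = 0.000145) and from old females by -1.36 ± 0.21 (adjusted p = 0.000175), which carries over the division of the libraries described for this segment.

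**Figure D5:**
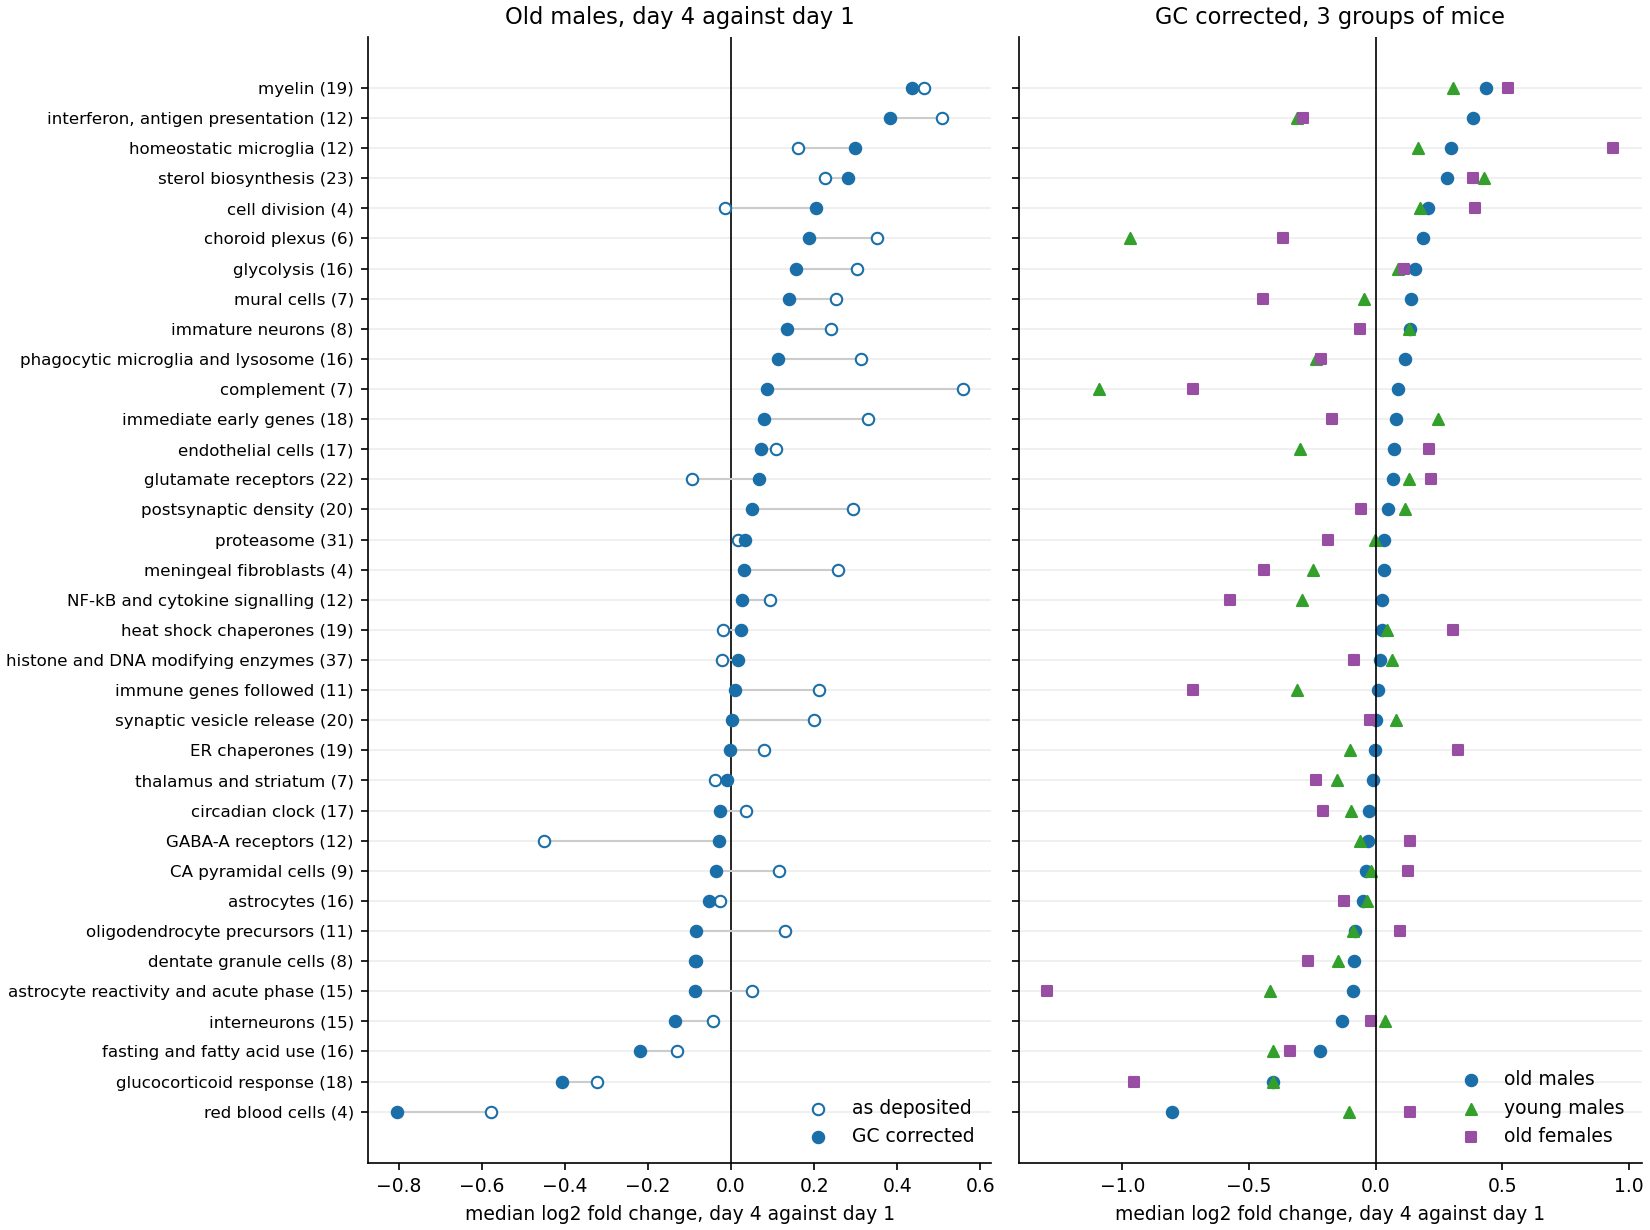
Median log2 fold change of each gene list with at least 4 tested genes (number in parentheses) on day 4 against day 1. Left: old males as deposited (open) and after GC correction (filled); right: old males, young males and old females after correction. In old males the myelin list lies highest (0.44) and the red blood cell (-0.81) and glucocorticoid (-0.41) lists lowest after correction. The interferon and complement lists lie above 0 in old males and below 0 in both other groups.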

How the data were processed

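Poly(A) RNA from 1 hippocampus per mouse had been made into whole transcriptome libraries (Ion Total RNA-Seq Kit v2) and sequenced on an Ion Proton. The authors aligned trimmed reads to mm10 with STAR in Partek Flow and deposited TMM-normalized CPM for each gene and library. The gene annotation and whether strand was used in counting are not given in the sources used here, so antisense and overlapping genes may share reads. Depth was estimated from the most frequent low value of each library, taken as 1 read. Between 80.2% and 81.1% of values below 100 reads lay within 0.02 of whole numbers, so reads were not recovered and no count model was used.

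Genes averaging 5 CPM or more in the 8 libraries were transformed to log2(CPM + 1), which understates the fold changes of low genes, and tested with limma 3.58.1 in R 4.3.3 (moderated test, variance trended on expression; call at an unadjusted p of 0.01, the threshold of the study; Benjamini-Hochberg adjusted p over all genes tested). The GC-corrected fit removed a lowess trend (span 0.3), fitted in each library to the deviations from the gene means, along union-exon GC content (GENCODE vM21, GRCm38), available for 11649 genes (99.8%). Interactions were tested in the same way with 4 young male libraries on each day, or with 4 old female day 1 and 3 day 4 libraries. Each library is labelled as a separate mouse. No set test was run, and 36 gene lists are given by counts and medians. A list's score in a library is the median deviation of its genes from the day 1 mean. Gene identity was checked by shared exon sequence of 50 bases. The code was tested on artificial data with known answers.

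Named genes followed a rule: the 6 genes each way with the largest change at a mean of at least 50 CPM and the 3 each way below it, called in both fits and without overlap; up to 2 members each way of each list; the 3 genes each way with the smallest p in each interaction; and genes the study names for old males. Other genes in the text are list members or were chosen after their values were seen. The comparison, the members and the lists were chosen with earlier results of these data known. Alternatives were other pseudocounts, filters and scaling, GC with transcript length, a replicate block, an unmoderated test, all 12 groups in 1 fit and leaving out each library. Leaving out day 4 replicate 3, or young male day 4 replicate 3, for the counts in both fits was added after seeing the data. Some genes that the rule or the lists hold are not reported here.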

Additional observations from a re-analysis of the deposited data

Results flagged for a closer look

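Single libraries stood far from the other 3 of their group, by the gap to the nearest library over the range of the group, in 18 of 242 pairs of a named gene and a group. Chance alone passes the limit in about 1 in 20 groups. Of these 18, 7 were in day 4 replicate 3, whose GC slope of 0.4765 log2 units for 10 percentage points also stood apart from the other day 4 libraries (0.183 to 0.225). In that library Nr1d2 was 29.25 CPM (44.38 to 46.44 CPM in the others), Gad1 173.2 CPM (200.9 to 205.2 CPM), Grin2a 158.8 CPM (226.1 to 231.4 CPM), Klf9 83.19 CPM (119 to 124.4 CPM) and Psmd7 62.28 CPM (51.81 to 53.57 CPM). Ttr and Kl, both abundant in choroid plexus, were 2481 and 40.61 CPM there and at most 212.6 and 18.6 CPM in the other day 4 libraries. Without this library the falls called in both fits numbered 9 in place of 10 in the glucocorticoid list.

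On day 1, replicate 3 held Ttr at 2939 CPM, Kl at 99.56 CPM and Igf2 at 103.1 CPM, where the other libraries had at most 15.73, 19.44 and 24.62 CPM, and Rhou at 50.02 CPM against 56.18 to 56.63 CPM. Replicate 2 held Sfpq at 84.88 CPM (95.99 to 96.94 CPM in the others), Tsc22d3 at 48.07 CPM (57.24 to 57.78 CPM) and Jak3 at 8.682 CPM (7.204 to 7.406 CPM). Psmb6 was 63.17 CPM in replicate 4, against 49.97 to 51.16 CPM. Zic1, which marks tissue around the thalamus and septum, was 28.02 CPM in day 4 replicate 2 against 17.73 to 19.29 CPM. Gm5859 at 0.09517 CPM in day 4 replicate 5 and Gm13301 at 0.03602 CPM in day 4 replicate 8 are each at the level of a few reads or fewer, beside values near 0 in the other day 4 libraries.

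In 15 cases the change from day 1 to day 4 differed between groups (limma test of the difference itself, adjusted p of 0.05). These came from the genes named for their interaction p and, against young males only, from genes of lower expression named for a large change. Other named genes were put to the same test and are not listed here, so 15 is not a count over all of them. Against young males the difference in log2 change was 1.79 for C4b, -1.05 for Ide, -3.68 for Gm13301, -4.17 for Gm17167 and -4.01 for Gm5859, and 1.63, -0.85, -3.71, -4.17 and -4.11 after GC correction. The chromosome 4 features were near 0 in all 4 old male day 4 libraries, so these differences depend on the pseudocount and are no measure of a fold.

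Against old females the difference was 1.83 for C4b, 1.45 for Per1, 1.01 for C1qb, 0.92 for Gcn1l1 and 0.92 for Pitpnm2, which were higher in the old male change. It was -1.37 for Slc39a10, -1.36 for Ide, -1.34 for Sfpq, -1.19 for Oxct1 and -0.85 for Bnip3l. After GC correction these were 1.56, 1.02, 0.65, 0.68 and 0.56, and -1.04, -0.96, -1.14, -1.04 and -0.40. Bnip3l shares 23.4% of its 50-base words with other transcripts.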

How the results depend on the processing

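The 5391 genes called became 1906 after GC correction, 2183 after correction for GC content and transcript length, 1911 with a mean of at least 50 CPM (fewer genes tested), 3403 with a replicate block and 901 with the block and GC correction together. Leaving out each library gave 4392 to 5486 as deposited, 1403 to 2221 after correction and 804 to 1363 in both fits. Day 1 and day 4 share only numbers 2 and 3, which mark different mice and whose deviations correlated at -0.00247 and 0.191. The age interaction, 543 genes, was 202 after GC correction, 235 with length, 155 at 50 CPM, 817 without a filter, and 175 with the replicate block and GC correction. It was 278 to 1099 without single libraries: 278 without old male day 1 replicate 1, 292 when young male day 1 replicate 1 was left out, and 322 and 1099 when replicates 2 and 4 of the young males on day 4 were. After GC correction it was 144 to 328, the 328 without the last of these libraries. The sex interaction, 3946 genes, was 2456 after GC correction, 2554 with length, 1338 at 50 CPM, 1931 with the replicate block and 1031 with both. Where not stated otherwise, the cause of a shift was not tested.

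The log2 fold change turned to -0.0157 for Rela and -0.0613 for Per1 after GC correction, and to -0.0189 and -0.0742 with length. List medians turned to -0.0878 for astrocyte reactivity, -0.0363 for CA pyramidal cells, 0.2058 for cell division, -0.0253 for the clock, 0.0677 for glutamate receptors and -0.0834 for oligodendrocyte precursors, and with length to -0.0864, -0.0378, 0.2068, -0.0247, 0.0581 and -0.0918, and to -0.009 for vesicle release. Without single libraries the medians ranged from -0.0733 to 0.0363 for astrocytes, from -0.0182 to 0.0723 for the clock and from -0.0807 to 0.0506 for interneurons. Of 121 named genes, GC correction took 10 out of the call and brought 8 in, the replicate block 25 and 4, the unmoderated test 13 and 0, and median of ratios scaling 5 and 0. Leaving out single libraries took out the call in 39 of 968 fits. Other pseudocounts moved 1 call, and no scaling moved the median of all genes by more than 0.0198.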
